A study of Homo sapiens with 6 samples.

Results

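Fatty acid synthesis, activation and uptake were followed through 38 of the 27470 genes counted in 22Rv1-ABHD5 cells. The genes were chosen by symbol and by function, with earlier results of these data known. All 38 were listed in the count table. They fall into 8 roles: malonyl-CoA and palmitate synthesis, citrate export and NADPH, transcriptional and protein regulators, the elongation cycle, mitochondrial synthesis, long-chain acyl-CoA synthetases, short- and medium-chain acyl-CoA synthetases, and the SLC27 fatty acid transport proteins. 22Rv1 is a human castration-resistant prostate cancer cell line. In both groups the cells carried a lentiviral transgene for ABHD5, the coactivator of the lipase ATGL, behind a doxycycline (Dox)-inducible promoter, after selection with G418. The labels call the 3 libraries without Dox control and the 3 libraries with Dox ABHD5 overexpression, and they give 48 h of culture. Libraries of parent cells with Dox were not analysed here, so effects of Dox and of ABHD5 cannot be told apart. The labels do not say that replicates were separate cultures, so p-values measure the spread between these libraries, which may be technical.

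Cells build palmitate from acetyl-CoA in the cytosol: citrate leaves the mitochondrion and is cleaved, the acetyl-CoA is carboxylated to malonyl-CoA, and fatty acid synthase joins the units with electrons from NADPH. A shorter, separate pathway in mitochondria makes the octanoate from which lipoate is formed. A free fatty acid, whether made, taken up or released from triglyceride, enters metabolism only after an acyl-CoA synthetase has joined it to coenzyme A, and the SLC27 proteins couple this step to uptake. Prostate cancer cells are known for active lipid synthesis, much of it under androgen receptor and SREBP1 control.

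RNA was read from the 3ʹ ends of transcripts, so counts were not divided by gene length. Counts on genes ranged from 3394672 to 5988151 per library without Dox and from 3460471 to 7271771 with Dox. Values are CPM, in which each count was divided by its library's total, adjusted by TMM, and brought to the same base in all libraries, on which the limit of 3 counts is 0.394 to 0.930 CPM. ABHD5 was at 63.5, 58.0 and 62.8 CPM in replicates 1, 2 and 3 without Dox and at 126, 131 and 91.7 CPM with Dox. All libraries with Dox were above all without it, with a log2 fold change of 0.91 (SE 0.15, adjusted p = 1.978e-04, edgeR). Transgene transcripts that lack the native 3ʹ end would escape part of this count. Reads on no gene made up 32.5% to 34.6% of reads without Dox and 35.6% to 39.5% with Dox, ranges that do not overlap, and the part of this shift in the results was not tested. All 9 prostate luminal markers were detected, with a summed level of 1442 to 1517 CPM without Dox and 898 to 991 CPM with Dox, and 5 of them were lower by the test used below. Of the markers of other cells, KRT5, KRT14, CD3E, PECAM1, VWF and CDH5 had no counts in any library. The summed level was at most 0.784 CPM for 4 basal markers. It was 4.96 to 9.43 CPM without Dox and 6.12 to 9.98 CPM with Dox for 5 fibroblast markers, of which 1, COL1A1, was higher. It was 3.13 to 5.27 CPM and 4.33 to 6.12 CPM for 5 immune markers, of which the 1 with enough counts was not called.

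With Dox, the synthetase gene ACSL3 fell to less than its lowest level without Dox in every library, and genes for malonyl-CoA, cytosolic NADPH, palmitate elongation and the mitochondrial malonyl transfer (ACACA, IDH1, ELOVL6 and MCAT) fell with it, as did SLC27A5. Of the others, 3 genes rose, namely ACSS1, ACSL6 and MLXIPL. The fall of SLC27A5 did not pass the test in 9 of 14 alternative fits, nor the rise of MLXIPL in 6 of 14. ACSL6 missed it in 3 of 13 and ELOVL6 in 1 of 14. FASN, ACLY and SLC25A1 did not pass the test. Of the 38 genes, 32 had enough counts to be tested, and 9 of these (28.1%) were called at an adjusted p under 0.05 with edgeR's quasi-likelihood test. Among all 12233 genes tested, 25.5% were called, so the share of calls in the pathway was near the background and is not a result about the pathway. The 3 genes called higher are 9.38% of those tested, against 11.9% of all genes. The 6 called lower are 18.8%, against 13.7% of all genes. The groups did not overlap, with all libraries with Dox lower, in 8 of the 32 genes, against 20.5% of all genes tested. All libraries with Dox were higher in 7 of the 32, against 19.0% of all genes tested. The median log2 fold change was -0.092, against 0.016 over all genes tested, and 18 of the 32 values were below 0. Scaling by library totals alone moved the median of all genes from 0.02 to 0.14 and gave 6 genes higher and 5 lower, and upper-quartile scaling gave 4 higher and 5 lower. Because whole cultures were sequenced, fewer cells that hold a transcript and less of it per cell cannot be told apart.

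**Figure D1:**
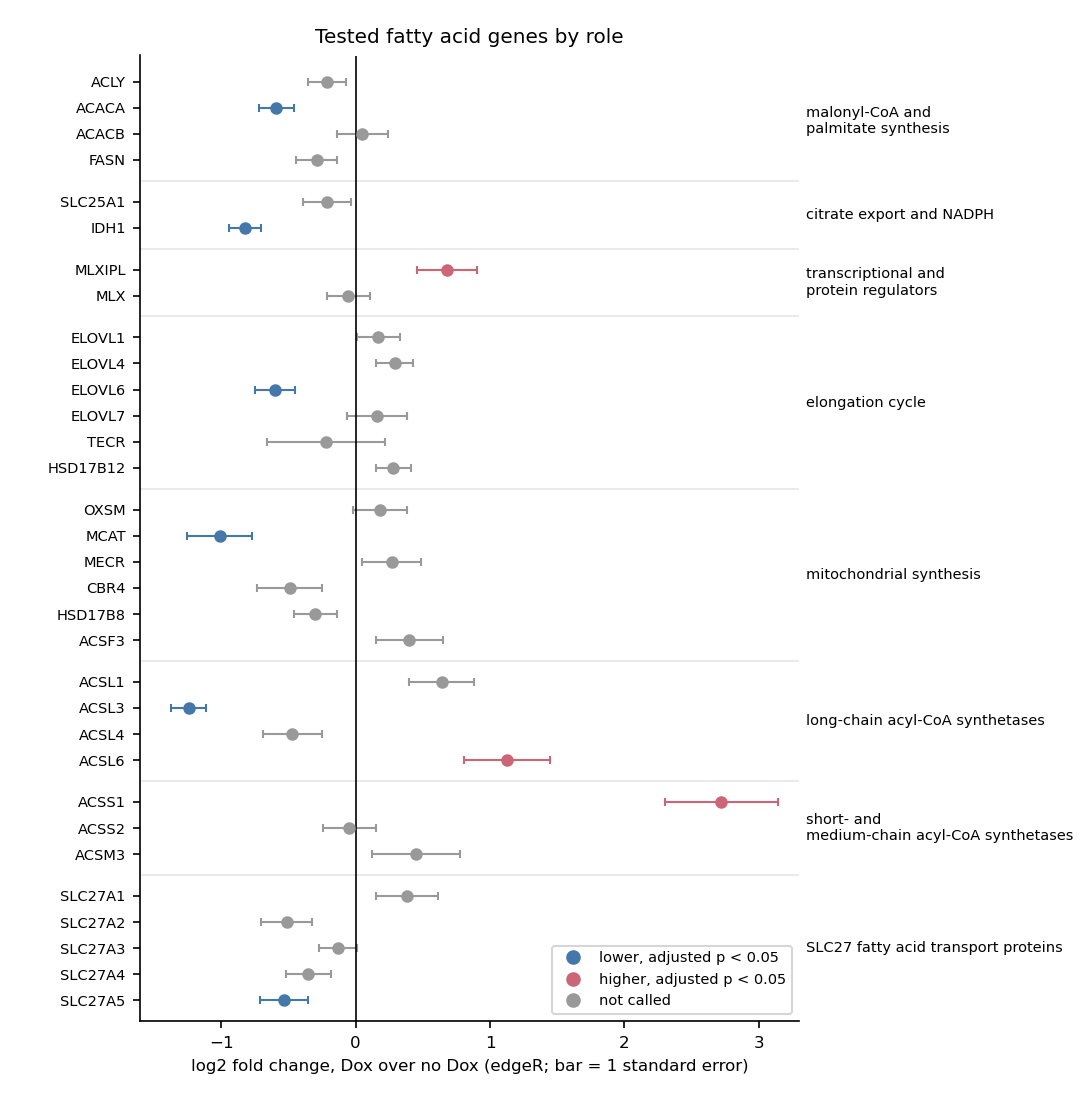
Log2 fold change with Dox over without Dox (x axis) for each of the 32 tested genes (y axis, grouped by role), with bars of 1 standard error. ACSL3 at -1.24 and ACSS1 at 2.72 are the ends of the range, and called genes lie on both sides of 0.

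Promoter windows of the genes at the ends of the range and of ACSL6 are shown because these 3 synthetase genes changed most. Windows of 250 bases before to 50 after the start were taken from RefSeq on GRCh38.p14 and found for 33 of the 38 genes. FASN, HSD17B12, OXSM, ACSM3 and ACSS3 were not matched. Only the first window listed for each gene symbol was used, and it can lie inside the gene. That of ACSF2 spans 50468079 to 50468378 on chromosome 17, in a gene annotated from 50426158 to 50474845. Other starts of a gene were not searched. Each window below is written on the strand of its gene, with matches to GGGCGG (the GC box of Sp1) or CCAAT (the NF-Y box), on either strand, in capitals. The windows are chr2:222860786-222861085 on the plus strand for ACSL3, chr5:132012164-132012463 on the minus strand for ACSL6 and chr20:25058090-25058389 on the minus strand for ACSS1.
ACSL3: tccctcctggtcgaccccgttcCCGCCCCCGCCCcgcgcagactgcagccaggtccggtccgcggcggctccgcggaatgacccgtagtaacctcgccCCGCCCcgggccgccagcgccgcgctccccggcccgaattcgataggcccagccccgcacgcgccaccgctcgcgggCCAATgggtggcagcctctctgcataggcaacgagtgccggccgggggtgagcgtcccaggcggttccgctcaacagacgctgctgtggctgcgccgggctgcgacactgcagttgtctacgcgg
ACSL6: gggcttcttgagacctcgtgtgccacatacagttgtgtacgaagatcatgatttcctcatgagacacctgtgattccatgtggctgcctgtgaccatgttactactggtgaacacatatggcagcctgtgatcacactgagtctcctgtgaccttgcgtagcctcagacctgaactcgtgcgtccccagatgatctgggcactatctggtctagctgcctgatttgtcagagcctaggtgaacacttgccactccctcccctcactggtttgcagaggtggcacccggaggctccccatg
ACSS1: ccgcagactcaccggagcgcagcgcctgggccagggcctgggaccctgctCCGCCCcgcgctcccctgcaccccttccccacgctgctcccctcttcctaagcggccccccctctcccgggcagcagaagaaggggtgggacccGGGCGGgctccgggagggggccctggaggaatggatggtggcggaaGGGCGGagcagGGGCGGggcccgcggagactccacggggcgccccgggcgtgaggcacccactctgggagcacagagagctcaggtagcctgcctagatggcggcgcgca
The ACSL3 window holds 1 CCAAT and 3 GC boxes, of which a pair abut, and is 74% G and C. ACSS1, which moved the opposite way, has 4 GC boxes in a window of 75% G and C. ACSL6 has no match in a window of 54% G and C. The 33 windows, 1 per gene, include those of the untested genes ME1, THRSP, ELOVL3, ACSL5 and ACSF2. The 9332 windows of tested genes set beside them do not. Over the 33 windows, GGGCGG was found in 26 (78.8%), against 71.2% of the 9332 windows of tested genes and 44.6% of all 27305. CCAAT was found in 13 (39.4%), against 37.5% and 35.7%. The E-box CACGTG, the core letters shared by the ChREBP and USF families, was in the windows of MLX, ELOVL4 and ACSF2 (9.09%), against 10.5% and 7.43%. TCACNCCAC, a sterol-response-element form bound by SREBPs, was in none of the 33, and it is in 1.13% of the windows of tested genes and 1.15% of all. Both strands were searched, and none of these motifs lies within another. The matches describe the letters of these windows and not binding.

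Of the 4 genes of malonyl-CoA and palmitate synthesis, 1 fell and none rose (median log2 fold change -0.25). ACACA, on chromosome 17 from 37084992 to 37406836 of hg38, encodes the cytosolic acetyl-CoA carboxylase that makes malonyl-CoA for synthesis. It was at 194, 210 and 175 CPM in replicates 1, 2 and 3 without Dox and at 137, 138 and 110 CPM with Dox. Every library with Dox was below every library without it, and the level fell by 0.59 on the log2 scale (SE 0.13, adjusted p = 0.00309, edgeR). Its paralog ACACB, whose product sits at the mitochondrion where malonyl-CoA restrains fatty acid entry, was at 19.9, 16.1 and 16.4 CPM without Dox and 17.6, 19.8 and 17.1 CPM with Dox. These ranges overlapped, with a log2 fold change of 0.05 (SE 0.19, adjusted p = 0.881).

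FASN, on chromosome 17 from 82078338 to 82098294, encodes fatty acid synthase. It was at 1228, 1010 and 935 CPM without Dox and at 893, 687 and 1014 CPM with Dox, and replicate 3 with Dox lay within the range without Dox. Its log2 fold change was -0.29 (SE 0.15, adjusted p = 0.180), and no alternative called it (-0.42 to -0.15). ACLY, ATP-citrate lyase, which cleaves citrate to acetyl-CoA, was at 482, 427 and 547 CPM without Dox and 468, 347 and 446 CPM with Dox. Again the groups overlapped, with a log2 fold change of -0.21 (SE 0.14, adjusted p = 0.307).

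SLC25A1, the carrier that brings citrate out of the mitochondrion, was at 136, 124 and 108 CPM without Dox. With Dox it was at 97.6, 76.0 and 142 CPM, so that replicate 3 with Dox was the highest of all 6. The log2 fold change was -0.21 (SE 0.18, adjusted p = 0.431); without that library it was -0.49 (adjusted p = 0.0229). IDH1, the cytosolic isocitrate dehydrogenase that supplies NADPH, lies on chromosome 2 from 208236229 to 208266074. It was at 283, 267 and 301 CPM without Dox and at 172, 148 and 163 CPM with Dox. The groups stood well apart, and the level fell by 0.82 on the log2 scale (SE 0.12, adjusted p = 8.537e-05, edgeR). ME1, the cytosolic malic enzyme that is another source of NADPH, had 0, 1 and 5 counts without Dox and 11, 6 and 2 counts with Dox, too few to be tested.

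Among the regulators, MLXIPL (ChREBP, a glucose-responsive transcription factor of lipogenic genes) was at 15.4, 12.4 and 13.3 CPM without Dox and 15.2, 27.0 and 23.9 CPM with Dox. It was called higher (log2 fold change 0.68, SE 0.22, adjusted p = 0.0332), although replicate 1 with Dox lay within the range without Dox. The call was lost in the fit to the deposited normalized values (0.64, adjusted p = 0.0517) and without any library other than replicate 1 with Dox. These values were 0.75 (adjusted p = 0.0584), 0.62 (0.0925) and 0.65 (0.0888) without replicates 1, 2 and 3 of the cells without Dox, and 0.54 (0.101) and 0.60 (0.0889) without replicates 2 and 3 with Dox. Its dimer partner MLX was at 31.2 to 45.0 CPM without Dox and 34.5 to 37.6 CPM with Dox, with a log2 fold change of -0.054 (SE 0.16, adjusted p = 0.847). THRSP, a lipogenesis-linked protein known from liver and fat, had at most 4 counts in any library.

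In the elongation cycle, which lengthens acyl-CoAs at the endoplasmic reticulum, 1 of 6 tested genes fell and none rose (median 0.16). ELOVL6 extends palmitate to stearate and lies on chromosome 4 from 110045846 to 110199199. It was at 88.8, 100 and 91.3 CPM without Dox and at 57.4, 78.5 and 51.2 CPM with Dox. All libraries with Dox were below all without it, and the level fell by 0.60 on the log2 scale (SE 0.15, adjusted p = 0.00843, edgeR). Without replicate 1 with Dox the value was -0.55 and missed the threshold (adjusted p = 0.0529). The other tested elongases, ELOVL1, ELOVL4 and ELOVL7, had log2 fold changes of 0.17, 0.29 and 0.16, with adjusted p of 0.141 to 0.645. ELOVL4, which makes very-long-chain fatty acids, was at 41.3, 42.8 and 44 CPM without Dox and 49.6, 50.9 and 55.7 CPM with Dox. The groups did not overlap, and it was called only under library totals (0.41, adjusted p = 0.0365). HSD17B12, the ketoacyl-CoA reductase of the cycle, behaved likewise, at 66.6, 76.9 and 78.4 CPM without Dox and 90.7, 91.6 and 87.7 CPM with Dox (log2 fold change 0.28, SE 0.13, adjusted p = 0.118; 0.40, adjusted p = 0.0251, under library totals). TECR, the enoyl-CoA reductase, had 4 to 27 counts per library and a log2 fold change of -0.22 with an SE of 0.44. Shares were taken of the reads on ELOVL1, ELOVL3, ELOVL4, ELOVL6 and ELOVL7, without ELOVL2 and ELOVL5. ELOVL6 took 36.2%, 41.1% and 41.6% without Dox and 28.1%, 33.3% and 21.6% with Dox. ELOVL5, left out of this sum, was above ELOVL6, at 217, 201 and 263 CPM without Dox. The shares were not tested.

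Of the 6 mitochondrial genes, 1 was called. MCAT, which loads malonyl groups onto the mitochondrial acyl carrier protein, lies on chromosome 22 from 43132209 to 43143398. It was at 19.6, 13 and 18.2 CPM without Dox and at 10.2, 8.35 and 7.09 CPM with Dox. No library with Dox reached the range without Dox, and the level fell by 1.01 on the log2 scale (SE 0.24, adjusted p = 0.00446, edgeR). The remaining steps did not pass the test: OXSM, the ketoacyl synthase, had a log2 fold change of 0.18 and MECR, the enoyl reductase, had 0.27. CBR4 and HSD17B8, the subunits of the ketoacyl reductase, had values of -0.49 (SE 0.24, adjusted p = 0.149) and -0.30 (SE 0.16, adjusted p = 0.193). CBR4 was called without replicate 2 without Dox (-0.69, adjusted p = 0.0451). ACSF3, the synthetase that makes mitochondrial malonyl-CoA, was at 8.36, 7.44 and 6.63 CPM without Dox and 8.92, 11.7 and 9.06 CPM with Dox. Its groups did not overlap, yet the log2 fold change of 0.40 (SE 0.25) had an adjusted p of 0.277.

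**Figure D2:**
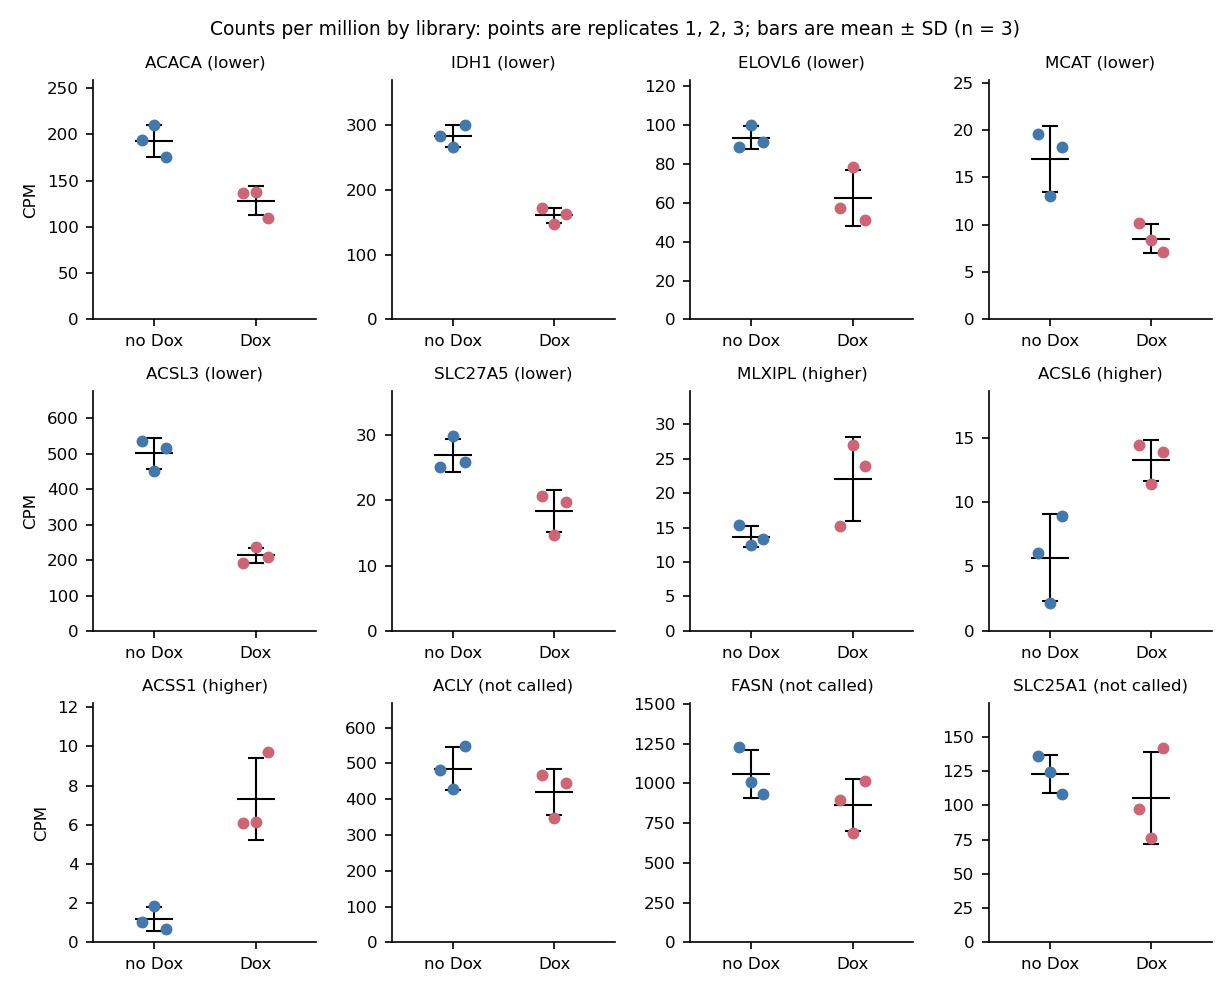
CPM (y axis, from 0) in each library without and with Dox for the 9 called genes and for ACLY, FASN and SLC25A1, with the mean and SD of 3 replicates per group. ACSL3 and IDH1 are clearly separated between groups, the MLXIPL groups overlap, and replicate 3 with Dox sets SLC25A1 apart from its group at 142 CPM.

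The long-chain acyl-CoA synthetases held called genes in both directions. ACSL3, on chromosome 2 from 222860942 to 222944639, encodes a synthetase of the endoplasmic reticulum and of forming lipid droplets. It was at 537, 453 and 516 CPM without Dox and at 193, 236 and 210 CPM with Dox. No library with Dox came near the range without Dox, and the mean went from 502 ± 43.6 CPM to 213 ± 21.5 CPM (SD, n = 3), which is 2.36-fold lower. On the log2 scale it fell by 1.24 (SE 0.13, adjusted p = 1.892e-06, edgeR), and the alternatives gave -1.32 to -1.12, all called. ACSL6, known mainly from brain and testis and with a preference for polyunsaturated fatty acids, lies on chromosome 5 from 131949973 to 132012243. Its counts were 23, 7 and 51 without Dox (6.01, 2.17 and 8.90 CPM) and 66, 41 and 106 with Dox (14.4, 11.4 and 13.9 CPM). All libraries with Dox exceeded those without, and the log2 fold change was 1.13 (SE 0.32, adjusted p = 0.0152). It missed the threshold without replicate 1 (1.12, adjusted p = 0.05) or replicate 2 (0.80, adjusted p = 0.0505) of the cells without Dox and without replicate 1 with Dox (1.08, adjusted p = 0.0552). The last 500 bases of ACSL6 overlap other annotated genes on both strands, so its reads are not certain to be its own.

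ACSL1, which serves both triglyceride synthesis and oxidation, was at 10.2, 7.75 and 8.2 CPM without Dox and 15.4, 10.3 and 14.4 CPM with Dox. The groups did not overlap, and its log2 fold change of 0.64 (SE 0.24, adjusted p = 0.0618) missed the threshold. It was called under upper-quartile scaling (0.69, adjusted p = 0.0432), under library totals (0.76, adjusted p = 0.0268) and without replicate 2 with Dox (0.77, adjusted p = 0.0267). ACSL4, which prefers arachidonate and so feeds membrane lipids prone to peroxidation, was at 37.4, 23.9 and 41.7 CPM without Dox and 30, 17.3 and 26.9 CPM with Dox. Its groups overlapped, with a log2 fold change of -0.47 (SE 0.22, adjusted p = 0.122). It was called with no filter on low counts (-0.49, adjusted p = 0.0423) and without replicate 2 without Dox (-0.67, adjusted p = 0.0272).

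Added over the 5 ACSL genes, reads came to 591, 487 and 576 CPM without Dox and to 253, 275 and 265 CPM with Dox. The ACSL3 share of these reads was 90.9%, 93.1% and 89.6% without Dox and 76.3%, 85.8% and 79.1% with Dox. The ACSL6 share was 1.02%, 0.446% and 1.55%, and 5.67%, 4.15% and 5.25% with Dox. The ACSL1 share was 1.72%, 1.59% and 1.43%, and 6.09%, 3.74% and 5.45% with Dox. These shares are descriptions without a test, and a lower ACSL3 raises the shares of the other genes by itself.

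**Figure D3:**
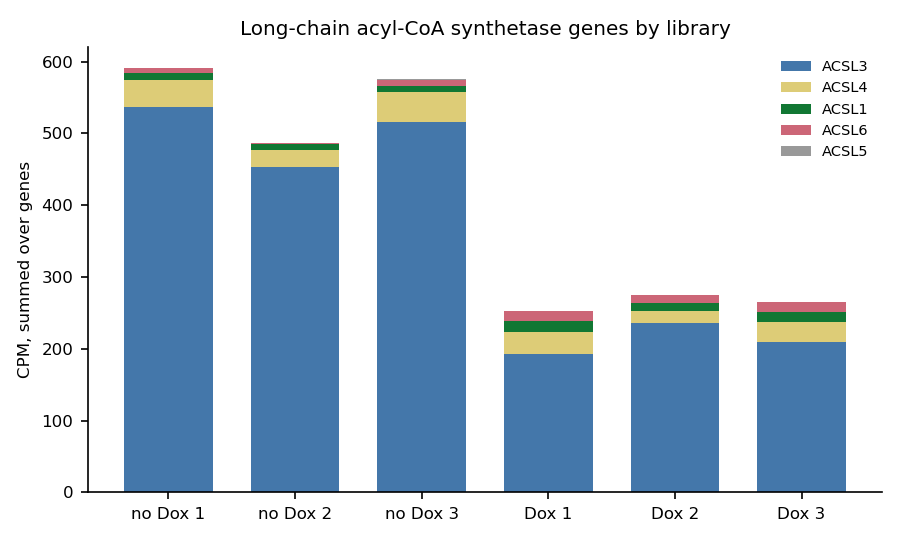
CPM added over the 5 ACSL genes (y axis, from 0) in each library (x axis), stacked by gene. The libraries without Dox reach 487 to 591 CPM and those with Dox 253 to 275 CPM, and ACSL3 makes up most of each bar.

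ACSS1, the mitochondrial acetyl-CoA synthetase, which turns free acetate into acetyl-CoA for oxidation, showed the largest fold of the 32 tested genes. It lies on chromosome 20 from 25006230 to 25058980. Its counts were 4, 6 and 4 without Dox (1.04, 1.86 and 0.698 CPM) and 28, 22 and 74 with Dox (6.09, 6.12 and 9.72 CPM). Here too the groups were apart, and it was 6.6-fold higher with Dox, from counts close to the limit of detection without Dox (log2 fold change 2.72, SE 0.42, adjusted p = 1.366e-04, edgeR). It stayed called in each alternative that tested it (2.37 to 3.11); a demand for 10 counts in every library left it untested. ACSS2, the cytosolic and nuclear acetyl-CoA synthetase whose product can enter lipid synthesis, was at 18.4 to 30.4 CPM in all libraries, with a log2 fold change of -0.045 (SE 0.20, adjusted p = 0.896). ACSM3, a medium-chain synthetase, was at 2.48 to 5.06 CPM without Dox and 5.57 to 6.09 CPM with Dox (log2 fold change 0.45, SE 0.33, adjusted p = 0.341).

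Of the SLC27 transport proteins, which combine fatty acid uptake with very-long-chain acyl-CoA synthetase activity, 1 of 5 was called and 4 had values below 0 (median -0.35). SLC27A5, which is known in liver for joining bile acids to coenzyme A, lies on chromosome 19 from 58479512 to 58512413. It was at 25.1, 29.8 and 25.8 CPM without Dox and at 20.7, 14.7 and 19.8 CPM with Dox. The groups did not overlap, and the log2 fold change was -0.53 (SE 0.18, adjusted p = 0.0449, edgeR). This call was lost in 9 of 14 alternatives: under upper-quartile scaling (-0.47, adjusted p = 0.0700), library totals (-0.40, 0.114), a minimum of 10 counts (-0.50, 0.0565) and DESeq2 (-0.53, 0.0653), and without any library but replicate 3 with Dox. Without replicates 1, 2 and 3 of the cells without Dox it was -0.59 (adjusted p = 0.0721), -0.46 (0.133) and -0.56 (0.0750), and without replicates 1 and 2 with Dox -0.61 (0.0583) and -0.41 (0.125). SLC27A5 also overlaps ZNF446 on the opposite strand at its end. SLC27A2, a very-long-chain synthetase of peroxisomes and the endoplasmic reticulum, was at 27.9, 22.0 and 26.9 CPM without Dox and 20.4, 18.6 and 15.5 CPM with Dox. Its groups did not overlap, and the log2 fold change of -0.51 (SE 0.19) had an adjusted p of 0.0526. It was called with no filter (-0.53, adjusted p = 0.0481) and without replicate 2 without Dox (-0.61, adjusted p = 0.0423). SLC27A1, SLC27A3 and SLC27A4 had log2 fold changes of 0.38, -0.13 and -0.35, with adjusted p of 0.155 to 0.536.

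Besides ME1 and THRSP, 4 genes were not tested. ACSF2, a medium-chain synthetase, had 1, 2 and 10 counts without Dox and 8, 5 and 18 with Dox. ELOVL3, an elongase of skin and brown fat, had 3, 2 and 4 counts and 1, 0 and 5 with Dox. ACSL5, a synthetase of mitochondria and endoplasmic reticulum, had 1, 0 and 5 counts and 1, 0 and 1 with Dox. ACSS3, a propionyl-CoA synthetase, had 1 count in all 6 libraries together. With the filter removed, 0 of the 6 were called by edgeR, and 0 had an unadjusted p under 0.05. Between replicates of the tested genes, the coefficient of variation had a median of 13% without Dox and 15.4% with Dox. It reached 59.3% for ACSL6 without Dox and 53.6% for TECR with Dox, genes with few counts. In all, 12 of the 38 genes overlap another annotated gene within their last 500 bases, 10 of them on the opposite strand. Since the use of strand in counting was not given in the sources used here, counts of these genes (among the called ones, ACSL6 and SLC27A5) are less certain than the others.

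**Figure D4:**
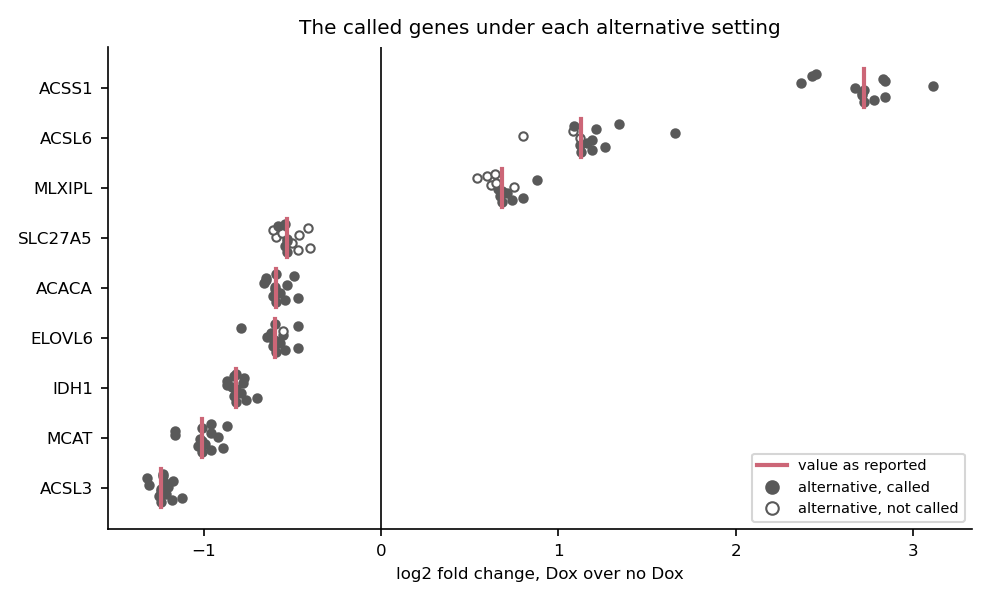
Log2 fold change (x axis) of each called gene as reported (vertical line) and under each alternative (points, filled where called). No point crosses 0, and open points gather in SLC27A5, MLXIPL and ACSL6.

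The other genes of the pathway were followed in 10 lists of 119 genes, of which 86 were tested. Of these, 5 were called higher (5.81%, against 11.9% of all genes) and 18 lower (20.9%, against 13.7% of all genes). Both directions together are 26.7%, again near the 25.5% of all genes. The median was -0.15, against 0.016 over all genes tested. Single lists held 1 to 17 tested genes, and their counts below stand beside the same 11.9% and 13.7% of all genes. Neither these shares nor the counts per list were tested. In the SREBP1 control list, 2 of 13 tested genes fell and none rose. INSIG1, which holds SREBPs in the endoplasmic reticulum and is itself an SREBP target, was at 482, 429 and 564 CPM without Dox and 252, 191 and 220 CPM with Dox. Its groups stood apart, and it fell by 1.15 on the log2 scale (SE 0.14, adjusted p = 1.157e-05). USF2, an E-box factor, fell by 0.38 (adjusted p = 0.0356). SREBF1 itself was at 142, 109 and 142 CPM and 165, 112 and 175 CPM with Dox, with overlapping groups and a log2 fold change of 0.21 (SE 0.16, adjusted p = 0.380).

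The desaturase list held 2 falling genes of 4 tested. SCD, which makes oleate from stearate, was at 1109, 1036 and 1310 CPM without Dox and 621, 477 and 485 CPM with Dox, a fall by 1.13 on the log2 scale (adjusted p = 1.584e-05). FADS1, a front-end desaturase of polyunsaturated fatty acids whose end overlaps FADS2 on the opposite strand, was at 330, 382 and 360 CPM without Dox and 83.7, 86.5 and 70.7 CPM with Dox, and fell by 2.16 (adjusted p = 2.303e-09). In the further elongation list, 2 of 5 fell, namely ELOVL5 (-0.56, adjusted p = 0.00924), an elongase of polyunsaturated fatty acids, and HACD2 (-0.39, adjusted p = 0.0341), a dehydratase of the cycle.

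Among thioesterases and acyl-CoA binding proteins, 1 of 13 rose and 3 fell. DBI, the acyl-CoA binding protein that carries newly activated fatty acids, was at 812, 772 and 884 CPM without Dox and 341, 320 and 312 CPM with Dox. Like ACSL3 it showed no overlap, and it fell by 1.34 on the log2 scale (SE 0.12, adjusted p = 4.232e-07). Its relative ACBD7 fell by 1.19 (adjusted p = 1.860e-05), and the thioesterase ACOT7 by 0.97 (adjusted p = 2.572e-04). ACBD4 rose (0.91, adjusted p = 0.0170). In the malonyl-CoA and AMPK list, 1 of 9 was called: CPT1A, the carnitine palmitoyltransferase that malonyl-CoA inhibits, was at 351, 404 and 356 CPM without Dox and 247, 244 and 235 CPM with Dox, and fell by 0.61 (adjusted p = 0.00111).

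Of 9 tested genes of other uptake and binding proteins, 2 rose and 3 fell. CAV1, caveolin, had 13, 8 and 21 counts without Dox and 52, 35 and 124 counts with Dox (log2 fold change 1.96, adjusted p = 1.242e-04). LRP1, a lipoprotein receptor, had 8, 2 and 1 counts and 31, 22 and 85 counts with Dox (3.19, adjusted p = 2.130e-04), a value that ranged from 2.53 without replicate 3 to 4.49 without replicate 1 of the cells without Dox. The endothelial lipase gene LIPG had 15, 10 and 28 counts without Dox and 6, 2 and 10 counts with Dox. It fell by 1.83 (adjusted p = 0.00470). Without replicate 3 of the cells without Dox, the LIPG value was -1.64 (adjusted p = 0.0449). The lysolipid transporter gene MFSD2A had 21, 18 and 34 counts without Dox and 14, 3 and 19 counts with Dox. MFSD2A fell by 1.34 (adjusted p = 0.0160). CD36, the fatty acid translocase, had at most 1 count in any library.

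In the NADPH list, 1 of 10 rose and 2 fell. The mitochondrial malic enzyme gene ME2 rose (0.84, adjusted p = 0.00108), while TKT, transketolase, fell by 0.49 (adjusted p = 0.0115) and PGD, of the pentose phosphate pathway, by 0.43 (adjusted p = 0.0262). In the citrate and acetyl-CoA list, 1 of 17 rose and 3 fell: the pyruvate dehydrogenase phosphatase gene PDP1 rose (0.69, adjusted p = 0.0412), the kinase gene PDK3 fell by 0.68 (adjusted p = 0.00974), and the pyruvate carrier genes MPC2 and MPC1 fell by 0.51 (adjusted p = 0.0141) and 0.47 (adjusted p = 0.0308). Of 5 tested genes of acyl carrier protein and lipoate, 0 were called by edgeR and 0 by DESeq2, and 1 had an unadjusted p under 0.05. AACS, the only tested gene of 10 further synthetases, was called by neither tool (log2 fold change 0.085).

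Of these 23 calls, 12 held with each library left out in turn, among them those of INSIG1, ME2, SCD, FADS1, ACOT7, DBI, ACBD7, CAV1, LIPG, LRP1 and CPT1A. The other 11 did not. Among cells without Dox, leaving out replicate 1 ended the calls of USF2, MPC1 and HACD2, replicate 2 those of PGD, TKT, MPC1, PDK3, PDP1 and HACD2, and replicate 3 those of MPC2, PDP1, ELOVL5, ACBD4 and MFSD2A. With Dox, replicate 1 ended those of USF2, PGD, TKT and HACD2, replicate 2 those of USF2, MPC1, HACD2 and MFSD2A, and replicate 3 those of MPC1, PDP1 and ACBD4. The least favourable values were -0.32 (adjusted p = 0.158) for USF2, -0.33 (0.134) for PGD, -0.38 (0.0704) for TKT, -0.37 (0.132) for MPC1, -0.38 (0.0799) for MPC2 and -0.53 (0.0588) for PDK3. They were 0.49 (adjusted p = 0.186) for PDP1, -0.45 (0.0516) for ELOVL5, -0.35 (0.133) for HACD2, 0.62 (0.108) for ACBD4 and -1.31 (0.0594) for MFSD2A. Under library totals USF2, PGD, MPC1, MPC2 and HACD2 were not called, under upper-quartile scaling USF2, MPC1 and HACD2 were not, and PDP1 was not called with DESeq2 or in the deposited normalized values.

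**Figure D5:**
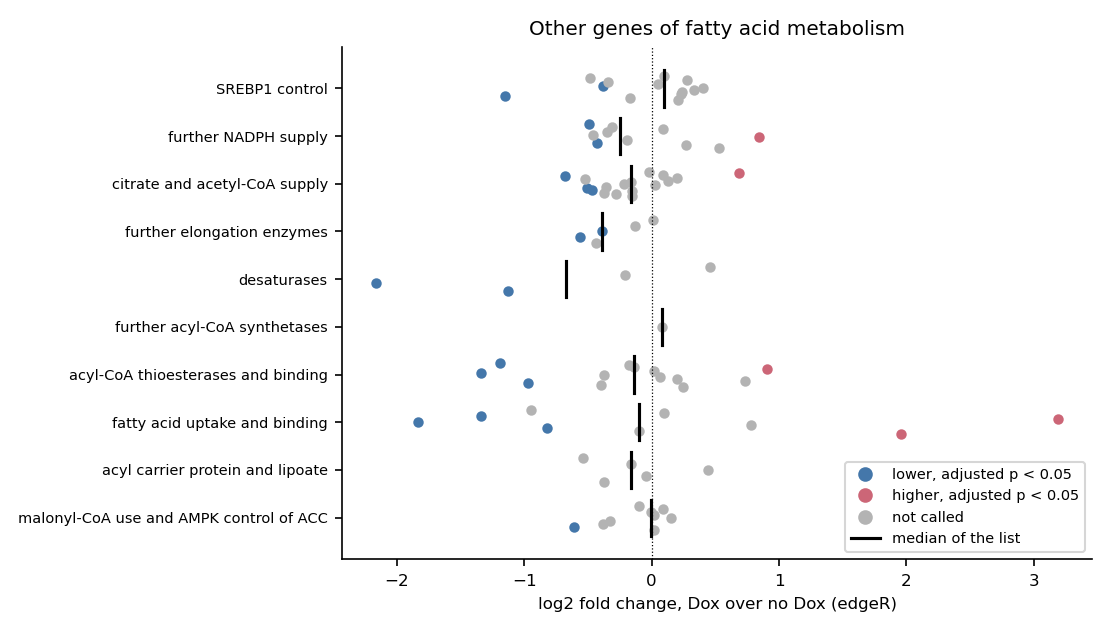
Log2 fold change (x axis) of the 86 tested genes in the 10 further lists (y axis), with a vertical line at each median. FADS1 at -2.16 and LRP1 at 3.19 are the ends of the range, and most genes lie near 0.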

How the data were processed

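RNA from 3 libraries without Dox and 3 with Dox was sequenced with a QuantSeq 3ʹ kit; the REV version is given in the study's methods and the FWD version in the labels. The counts used here are the raw numbers of reads per gene symbol that the authors deposited after STAR alignment to hg38. HTSeq, edgeR, FastQC and CASAVA 1.8.2 also stand in the submitters' processing notes; the annotation and strand setting are not given in the sources used here. The authors also deposited a normalized signal per library, used only as an alternative (log2 of value plus 1, limma 3.58.1), without 27 of 27475 rows whose names differed. Rows naming no gene (reads on no gene 32.5% to 39.5%, ambiguous reads 3.05% to 3.37%) entered neither library sizes nor tests.

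The main test was edgeR 4.0.16 in R 4.3.3 (TMM, filterByExpr, quasi-likelihood, Benjamini-Hochberg adjusted p under 0.05) over all genes that passed the filter; 8114 of 27470 genes had no counts. SE is the size of the log2 fold change divided by the square root of F. The test was checked on simulated counts. Every pair of replicates of a group differed beyond sampling noise (chi-square per degree of freedom 4.24 to 12.6). The limit of 3 counts covers counting error only, since reads carry no molecular identifiers. Alternatives were other scalings and filters, DESeq2 1.42.0, a replicate block, the deposited normalized values and each library left out.

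The 38 genes and all further lists were chosen with earlier results of these data known. Values per library are given for called genes, for ACLY, ACACA, ACACB, FASN, SLC25A1 and ME1, and for untested genes above 3 counts; from each further list, up to 3 called genes per direction with the smallest adjusted p, and SREBF1. Other genes given per library were chosen after their values were seen, as were the 3 promoter windows among those of the genes above. In the further lists, 1 called gene is counted but not reported here. Coordinates are from GENCODE 44 on hg38.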

Additional observations from a re-analysis of the deposited data

How the results depend on the processing

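Of the 9 called genes, 5 (ACACA, IDH1, MCAT, ACSL3 and ACSS1) kept their call in every alternative that tested them, and no called gene changed sign. Library totals alone raised the count of all genes higher with Dox from 1451 to 2179 (65.7% of calls, against 46.4%), that of pathway genes higher to 6, and their median log2 fold change to 0.03. Under a minimum of 10 counts per library, 28 pathway genes were tested and 1 was higher; the filter removes low genes by construction. With each library left out in turn, all genes called ranged from 2181 (without replicate 1 without Dox) to 3112, genes higher from 953 to 1459, pathway genes higher from 1 to 3 and their median from -0.15 to -0.0065. The 1 pathway gene still higher without replicate 1 or replicate 2 of the cells without Dox was ACSS1. Values near 0 changed sign in 6 uncalled genes: with libraries left out, ACACB ranged from -0.011 to 0.13, MLX from -0.19 to 0.073, ELOVL7 from -0.015 to 0.25, TECR from -0.75 to 0.032, OXSM from -0.00097 to 0.26 and ACSS2 from -0.21 to 0.11. Upper-quartile scaling gave 0.00087 for MLX and 0.011 for ACSS2, and library totals 0.068 and 0.077. Counts with no filter (3 higher, 8 lower), with DESeq2 (3 and 5), with RLE factors (3 and 6) and in the deposited normalized values (2 and 6) stayed within 1.5 times in total. The cause of these shifts was not tested. The 6 genes left out by the filter had at most 18 counts in any library, and with no filter 0 of them were called.

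Replicate numbers gave no clear pairing: same-numbered libraries deviated together with r of -0.00955, 0.226 and 0.0855. Of 6 libraries, 2 correlated best with their own number. Whether the replicates were paired is not known. A replicate block gave 3537 genes in all and 4 pathway genes higher and 8 lower, adding ACSL1 (0.63, adjusted p = 0.0492), ACSL4 (-0.48, adjusted p = 0.0310) and SLC27A2 (-0.52, adjusted p = 0.0403) to the 9.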
